A study of Mus musculus with 1483 samples.

Results

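The inward rectifier (Kcnj) and tandem-pore (Kcnk) genes encode 2 families of potassium channels that open without needing depolarization. They were taken as every gene of the expression table whose symbol is Kcnj or Kcnk followed by digits only. That gave 29 genes of 45768, of which 15 were Kcnj and 14 were Kcnk genes. A member was counted as detected when its mean reached 1 CPM (reads per 1000000 reads assigned to genes) in at least 2 mice, and 19 of the 29 members were detected.

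The cells came from 33 mice labelled C57Bl/6J and from tissue labelled VISp, the primary visual cortex. Each mouse had received an enhancer AAV, a viral vector in which a short enhancer sequence drives the fluorescent protein SYFP2, and single SYFP2-expressing cells were flow sorted and turned into SMARTerv4 libraries. A group here is therefore all mice that share an enhancer: 3 mice each for eHGT_017h, eHGT_019h, eHGT_023h, eHGT_058h, eHGT_078h, eHGT_079h, eHGT_128h, eHGT_140h and hDLXI56i, 4 for eHGT_064h and 2 for eHGT_082h. No mouse without a vector was among the samples, and neither age nor sex is stated in the sources used here. An enhancer group shows the cells in which that enhancer was active enough to pass the sort, so its makeup was set by the vector and the gate and is not a sample of all cells of the tissue.

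Inward rectifiers carry potassium more readily into the cell than out of it, so they hold a neuron near rest and shut off as it depolarizes. Strong rectifiers (Kcnj2, Kcnj4, Kcnj12, Kcnj14) are open at rest, GIRK channels (Kcnj3, Kcnj5, Kcnj6, Kcnj9) are opened by G protein beta-gamma subunits below Gi/o-coupled receptors, and Kcnj11 forms the ATP-sensitive channel with a sulfonylurea receptor. Kcnk genes encode leak channels whose subfamilies differ in what gates them: TREK and TRAAK (Kcnk2, Kcnk10, Kcnk4) respond to stretch and lipids, TASK (Kcnk3, Kcnk9 and the electrically silent Kcnk15) to external acid, THIK (Kcnk12, Kcnk13) to halothane, and TWIK (Kcnk1) passes little current at the cell surface.

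Each mouse gave 32 to 53 cells. The reads recovered from the CPM values ran from 833 to 1018507 per cell with a median of 586338, so that 1 read was worth 1.71 CPM and 10 CPM was 5.86 reads in the median cell. Cells were classed by marker thresholds that use no member gene. GABAergic cells had Gad1 or Gad2 at 10 CPM or more and Slc17a7 below it (75.9% of all cells), and glutamatergic cells the reverse (18.7%). Within them, Pvalb cells (572) and Sst cells (210) had Lhx6 and their own marker at 100 CPM or more, Lamp5 cells (10.3% of all cells) and Vip cells (50) had Adarb2 and theirs, and glutamatergic cells gave Rorb cells (46), Fezf2 cells (57) and those with neither gene (110). Glutamatergic cells with both genes got no class, and in all 19.2% of the cells had none. A class was averaged in a mouse that held at least 5 of its cells. A marker not used for the classes followed them: the GABA transporter Slc32a1 was at 39.6 to 77.3 CPM in the GABAergic mouse means and at 0 in all glutamatergic ones. Neurod6, a further glutamatergic marker, was low in the Fezf2 cells of the 3 mice that held them, at 0, 1.25 and 38.4 CPM. Median reads per cell differed little between classes, from 553927 in Sst to 598165 in Pvalb cells.

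The sequence just before the start of transcription was looked at for the members whose levels differ most sharply between close relatives or close neighbours. RefSeq promoters on GRCm38.p6 matched 24 of the 29 members. Shown are the 250 bases before the start for the THIK pair Kcnk12 and Kcnk13, whose levels trade places between classes below, for Kcnk2, the member with the widest gap between glutamatergic classes, and for Kcnj9 and Kcnj10, which lie head to head on chromosome 1 and were at very different levels. Capitals mark each CG dinucleotide, the site of DNA methylation, which reads the same on both strands.
Kcnk12: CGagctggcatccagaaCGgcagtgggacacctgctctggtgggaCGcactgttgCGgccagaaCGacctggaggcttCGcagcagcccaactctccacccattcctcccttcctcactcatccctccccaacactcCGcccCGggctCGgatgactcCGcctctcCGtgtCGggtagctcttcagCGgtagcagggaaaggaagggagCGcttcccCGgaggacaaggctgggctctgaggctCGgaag
Kcnk13: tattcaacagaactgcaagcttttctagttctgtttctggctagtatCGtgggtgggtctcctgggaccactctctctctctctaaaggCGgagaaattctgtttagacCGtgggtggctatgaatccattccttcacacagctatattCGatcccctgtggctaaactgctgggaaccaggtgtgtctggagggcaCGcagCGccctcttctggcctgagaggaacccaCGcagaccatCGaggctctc
Kcnk2: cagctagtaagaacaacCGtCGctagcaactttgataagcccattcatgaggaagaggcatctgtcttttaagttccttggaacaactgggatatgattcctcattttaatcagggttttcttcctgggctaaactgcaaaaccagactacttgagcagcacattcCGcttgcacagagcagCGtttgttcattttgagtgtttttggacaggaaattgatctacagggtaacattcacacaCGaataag
Kcnj9: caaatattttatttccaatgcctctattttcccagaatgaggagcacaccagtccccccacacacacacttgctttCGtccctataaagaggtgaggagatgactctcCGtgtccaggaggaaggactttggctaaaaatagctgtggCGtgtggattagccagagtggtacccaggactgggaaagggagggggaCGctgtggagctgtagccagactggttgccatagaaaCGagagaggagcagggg
Kcnj10: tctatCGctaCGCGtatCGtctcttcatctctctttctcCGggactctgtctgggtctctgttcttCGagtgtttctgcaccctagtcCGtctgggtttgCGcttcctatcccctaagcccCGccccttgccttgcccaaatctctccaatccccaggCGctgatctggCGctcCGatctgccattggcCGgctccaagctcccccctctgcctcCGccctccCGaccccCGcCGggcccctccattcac

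These windows lie at chr17:87797995-87798244 on the minus strand (Kcnk12), chr12:99964249-99964498 on the plus strand (Kcnk13), chr1:189402274-189402523 on the minus strand (Kcnk2), chr1:172329323-172329572 on the minus strand (Kcnj9) and chr1:172340960-172341209 on the plus strand (Kcnj10). Kcnk2 has 4 promoters in the table, and the one at the annotated end of the gene was taken. The Kcnk12 window held 16 CG and the Kcnk13 window 8. Kcnk2 and Kcnj9 held 5 each. Kcnj10, barely detected in these cells, held 17, the most of the 5. At least 1 CG was present in 92.1% of all 32851 promoters of that length and in 91.7% of the members' promoters, and the median was 7 CG in detected members, 5 in the others and 6 over all promoters. The count of CG is a description of these windows and was not tested against the levels.

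Levels of the detected members spanned from under 1 to over 100 CPM. Kcnk1 (ENSMUSG00000033998.9, chr8:125995170-126030685, plus strand, GRCm38 with GENCODE M21 here and below) had the highest level, with 173.9 ± 66.8 CPM (SD, n = 33 mice) and 80.6, 162 and 314.9 CPM in the lowest, median and highest mouse. It reached 10 CPM in 96.5% of cells and was the most abundant member per length as well, at 77.8 CPM per kilobase of transcript. The GIRK subunits Kcnj3 (chr2:55435970-55598145, plus) and Kcnj9 (chr1:172320501-172329318, minus) came next with 104.2 ± 32.9 and 74.9 ± 20.9 CPM, or 19.98 and 17.5 CPM per kilobase. Kcnk1, Kcnj3 and Kcnj9 were the only members at 10 CPM or more in over 80% of cells.

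Below them lay Kcnk2 (chr1:189207930-189402273, minus; 45.4 ± 34.6 CPM), Kcnk3 (chr5:30588170-30625271, plus; 42.9 ± 26.5), Kcnj6 (chr16:94748636-94997701, minus; 28 ± 14.4), Kcnj12 (chr11:61022564-61071131, plus; 19 ± 6.53) and Kcnk12 (chr17:87745801-87797994, minus; 18.4 ± 5.92), all SD over 33 mice. Kcnk2 ran from 9.67 CPM in the lowest to 172.004 CPM in the highest mouse, and Kcnk3 from 6.24 to 97.6 CPM. Kcnj4 (chr15:79483714-79505241, minus; 13.7 ± 7.53 CPM), Kcnj11 (chr7:46093953-46100764, minus; 13.4 ± 5.12), Kcnk4 (chr19:6923966-6934515, minus; 9.21 ± 8.47), Kcnk13 (chr12:99964499-100062682, plus; 6.88 ± 7.97), Kcnk10 (chr12:98429437-98578310, minus; 6.40 ± 6.21) and Kcnk9 (chr15:72501089-72546340, minus; 5.89 ± 6.29) completed the 14 members that averaged 5 CPM or more. For Kcnk13, Kcnk10 and Kcnk9 the SD between mice was about as large as the mean. Kcnk9 was at 0 in the lowest mouse and 19.9 CPM in the highest.

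The detected members that averaged 5 CPM or more differed in how evenly they were spread over the 7 classes. Kcnj3 had a ratio of 2.87 between its highest and lowest class, Kcnj9 3.18, Kcnj12 3.35 and Kcnk1 4.53, so these 4 were present in every class at levels of a like order. Kcnk2 (23.2), Kcnk4 (36.5), Kcnk3 (37.9), Kcnk9 (39.7), Kcnk13 (44.9) and Kcnk10 (245.4) were more uneven. The lowest class mean behind the last 2 ratios came from 1 mouse each, with the others at 0: Kcnk10 was at 0.747 CPM in 1 of 7 Lamp5 means (MouseID-392043) and Kcnk13 at 2.41 CPM in 1 of 4 Vip means (MouseID-410195). Without that mouse neither ratio exists, as for Kcnj2, at 14.7 CPM in Rorb and 0 in Pvalb cells. How often neighbouring classes overlap over all genes was not counted. Neighbours in the order of class levels mostly overlapped between mice. Those that did not were Pvalb above Sst for Kcnk3, Rorb above Fezf2 for Kcnj6, Lamp5 above Fezf2 for Kcnk1, Lamp5 above Vip for Kcnk12, Fezf2 above Rorb at the bottom of the order for Kcnk3, and cells with neither gene above Fezf2 for Kcnk4.

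Between GABAergic and glutamatergic cells, Kcnk3 was the member higher in GABAergic cells, and 9 members were higher in glutamatergic cells: Kcnj2, Kcnj4, Kcnj6, Kcnj16, Kcnk2, Kcnk4, Kcnk9, Kcnk10 and Kcnk13. Of the leak channels of the TREK and TRAAK group, all 3 were in the glutamatergic set. The GIRK subunit Kcnj6 was in it as well, whereas Kcnj3 and Kcnj9 were not called. Not every glutamatergic class had such levels. Kcnk2 averaged 168.8 CPM in Rorb cells, 17.5 in cells with neither Rorb nor Fezf2 and 7.29 in Fezf2 cells. It was at 57.9 CPM in Sst, 39.1 in Vip, 27.3 in Pvalb and 12.2 in Lamp5 cells. Kcnj2 averaged 14.7 CPM in Rorb cells and 7.39 in those with neither gene, but 0.115 in Fezf2 and 9.66 in Vip cells. The comparison used 30 mouse means of GABAergic and 9 of glutamatergic cells. It was tested with limma on log2(mean CPM + 1) with the mouse as a block and Benjamini-Hochberg adjustment over all genes, and a gene was called at an adjusted p under 0.05 and a log2 difference of at least 1 in size. That called 10 of the 19 members that passed the filter, beside 17.1% of all genes tested (6.34% higher and 10.8% lower in GABAergic cells), and the median log2 difference was -0.55 over these members and -0.03 over all genes.

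Kcnk3, the TASK subunit closed by external acid, had 14, 47.6 and 97.3 CPM in the lowest, median and highest GABAergic mouse mean and 2.95, 6.15 and 17.1 CPM in the glutamatergic means. The groups overlapped only in their tails, and the log2 difference was 2.63 ± 0.27 (SE; adjusted p = 4.08e-11). Kcnk4, the TRAAK channel, ran the other way with 2.29, 4.29 and 10.4 CPM in GABAergic and 14.8, 30.6 and 48.0 CPM in glutamatergic means. No GABAergic mouse mean of Kcnk4 reached the lowest glutamatergic one, and the log2 difference was -2.43 ± 0.18 (adjusted p = 2.38e-15). The share of all genes without overlap between these groups was not counted. Kcnj6 had 5.37, 17.8 and 39 CPM against 34.1, 58.9 and 71.6 CPM, with a log2 difference of -1.56 ± 0.18 (adjusted p = 1.30e-09). Its highest GABAergic means reached into the glutamatergic range.

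Kcnj2, a strong rectifier, was at 0 in the lowest and the median GABAergic mean and at 7.13 CPM in the highest, against 2.20, 6.36 and 17.2 CPM in glutamatergic means (log2 difference -2.51 ± 0.31, adjusted p = 7.33e-09). Kcnk10, a TREK channel, had 0, 3.61 and 12.4 CPM against 7.71, 14.5 and 32.4 CPM (-1.80 ± 0.29, adjusted p = 1.95e-06). Kcnk9, the second TASK subunit, had 0, 1.43 and 17.9 CPM against 4.67, 13.5 and 19.9 CPM (-2.13 ± 0.43, adjusted p = 5.70e-05). For each of these 3 genes most GABAergic means lay below the glutamatergic ones and a few lay among them.

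Kcnk2, the other TREK channel, had 13.8, 32.7 and 69.96 CPM in GABAergic and 9.36, 83.4 and 201.985 CPM in glutamatergic means (-1.25 ± 0.27, adjusted p = 0.000165). Its glutamatergic means spread more widely than its GABAergic ones and included the lowest of all. Kcnj4 was at 11.4 ± 4.91 against 23.5 ± 8.67 CPM (SD, n = 30 and 9; -1.03 ± 0.22, adjusted p = 0.000142), Kcnk13 at 6.84 ± 10.4 against 10.97 ± 5.70 CPM (-1.27 ± 0.54, adjusted p = 0.0497) and Kcnj16 at 0.548 ± 1.21 against 2.47 ± 3.04 CPM (-1.03 ± 0.29, adjusted p = 0.00333). Kcnk1 was at 181.7 ± 68.4 against 125.3 ± 20.7 CPM and stayed under the size threshold (0.45 ± 0.18, adjusted p = 0.0398). Kcnj3, Kcnj9, Kcnj11, Kcnj12 and Kcnk12 had log2 differences between -0.37 and 0.10 and were not called.

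In 6 mice, 3 with eHGT_023h and 3 with eHGT_058h, both kinds of cell came from the same animal. Kcnk3 was higher in GABAergic cells in 6 of 6 of them, and Kcnj2, Kcnj4, Kcnj6, Kcnk2, Kcnk4, Kcnk9 and Kcnk10 were each lower in 6 of 6. Kcnk13 was higher in 3 and lower in 3, and Kcnj16 was lower in 4, higher in 1 and tied in 1. The call of Kcnk13 ended without any 1 of 23 of the 33 mice. That of Kcnj16 ended without eHGT_023h MouseID-497548 (-0.93) or MouseID-497549 (-0.76) or eHGT_058h MouseID-497551 (-0.95), and that of Kcnj4 without eHGT_017h MouseID-406074 (-0.97) or MouseID-410195 (-0.98), eHGT_058h MouseID-497551 (-0.96) or eHGT_078h MouseID-453328 (-0.98).

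The summed level of 6 astrocyte markers (Aqp4, Gja1, Aldh1l1, Gfap, Slc1a3, Slc1a2) was 110 to 654.7 CPM in glutamatergic and 1.74 to 157.3 CPM in GABAergic mouse means. In glutamatergic means the median was 255.8 CPM for the glutamate transporter Slc1a2, 25.5 for Aldh1l1 and 1.31 for Slc1a3. It was 0.28 for Gfap and 0 for Aqp4 and Gja1. The GABAergic median of Slc1a2 was 9.19 CPM. Kcnj16 and Kcnj10 are channels known from glia. Of the 24 cells with Kcnj16 at 10 CPM or more, 83.3% also had the sum of the 6 astrocyte markers at that level, against 44.1% of the other cells. The part of these transcripts in the Kcnj16 difference was not tested. Summed markers of microglia, endothelial cells and pericytes reached at most 14.5, 6.12 and 7.29 CPM in any class mean. Those of oligodendrocytes reached 3538 CPM in the highest Sst mean (median 37.8) and 148.8 CPM in the highest glutamatergic mean (median 119). Those of oligodendrocyte precursors reached 130.9 CPM in the highest Sst mean (median 0.0556). The part of these transcripts in the class differences was not tested. Among the 24 mice whose library names carry the letter G rather than J, 3 calls ended, those of Kcnj16, Kcnk13 and Kcnk2 (adjusted p = 0.0505 for Kcnk2). That subset held no eHGT_023h mouse. Its glutamatergic means came only from MouseID-453328, MouseID-454782, MouseID-458159 and MouseID-463481. With the mean of log2 values over cells the same 3 were not called, with Kcnk2 at -0.63 (adjusted p = 0.181). With the mouse as a fixed effect, Kcnj4 (adjusted p = 0.0511) and Kcnk13 (0.656) were not called.

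Partner genes were taken from lists of receptors and regulators that act on these channels. Of 18 Gi/o-coupled receptors tested, 1 was higher and 7 were lower in GABAergic cells, and the largest differences were in the receptors Grm2 (log2 difference -5.57), Sstr3 (-3.11) and Adora1 (-2.98). G protein subunits had 1 higher of 13 (Gng7, 1.88). RGS and KCTD proteins, which speed or reshape GIRK responses, had 1 higher (Kctd8, 1.92) and 4 lower of 10, with Rgs4 (-2.76) and Rgs6 (-1.74) the largest. The lipid kinase Pip5k1c (-1.04), which makes the PIP2 that these channels need, and the scaffold Dlg4 (-1.01) were lower, and neither sulfonylurea receptor was called.

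Pvalb cells had higher levels than Sst cells for 7 members, Kcnj3, Kcnj4, Kcnj9, Kcnj11, Kcnj12, Kcnk1 and Kcnk3, and lower levels for the TREK channels Kcnk2 and Kcnk10. Of the 6 Kcnj genes averaging 5 CPM or more, 5 were called higher in Pvalb cells, and the sixth, Kcnj6, had a log2 difference of 0.86 ± 0.18 (adjusted p = 0.000131), under the size threshold. The comparison set 21 Pvalb against 12 Sst mouse means, and 8 mice held both. It called 9 of the 20 members that passed the filter (the 19 detected and Kcnk6), beside 8.17% of all genes, of which 3.71% were higher and 4.46% lower in Pvalb cells. The median log2 difference was 0.24 over these members and 0.01 over all genes.

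Kcnk1 had 196.8, 261.9 and 313.4 CPM in the lowest, median and highest Pvalb mean and 67.1, 103.4 and 119 CPM in the Sst means. All Pvalb means lay above all Sst means, and the log2 difference was 1.42 ± 0.09 (SE; adjusted p = 2.60e-21). Kcnj9 had 70.2, 97.1 and 129.2 CPM against 15.9, 36.1 and 62.1 CPM (1.31 ± 0.14, adjusted p = 1.73e-11), and Kcnk3 58.4, 70.1 and 103.3 CPM against 21.8, 32.6 and 56.4 CPM (1.02 ± 0.18, adjusted p = 6.92e-06). These 2 members also had no overlap between the classes. The called members were picked by size and adjusted p on the same means. The share of all genes without overlap was not counted.

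Kcnj3 had 92.7, 130.3 and 199.1 CPM in Pvalb and 18.5, 54.8 and 97.2 CPM in Sst means (1.40 ± 0.15, adjusted p = 1.17e-11). Kcnj12, a strong rectifier, had 13.1, 26.2 and 58.6 CPM against 1.91, 6.89 and 17.6 CPM, with the largest positive difference of the members (1.70 ± 0.21, adjusted p = 1.53e-09). Kcnj11 was at 16.2 ± 4.80 against 7.65 ± 4.18 CPM (SD, n = 21 and 12; 1.16 ± 0.26, adjusted p = 0.000461) and Kcnj4 at 12.7 ± 3.69 against 5.52 ± 2.29 CPM (1.10 ± 0.23, adjusted p = 0.000117). Within the 8 mice with both classes, Kcnj3, Kcnj4, Kcnj6, Kcnj9, Kcnj12, Kcnk1 and Kcnk3 were higher in Pvalb cells in 8 of 8 and Kcnj11 in 7 of 8.

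The TREK channels went the other way. Kcnk10 had 0, 2.42 and 7.33 CPM in Pvalb and 1.63, 8.35 and 18.2 CPM in Sst means (-1.58 ± 0.32, adjusted p = 8.34e-05), and Kcnk2 had 11.6, 25.6 and 44.5 CPM against 33.3, 55.2 and 107.9 CPM (-1.02 ± 0.24, adjusted p = 0.000631). The classes overlapped for both, and each was lower in Pvalb cells in 7 of the 8 shared mice. Leaving out eHGT_064h MouseID-468100 ended the call of Kcnj11 (0.95), 1 of 6 mice that of Kcnk2 (-0.94 to -0.999) and 1 of 4 that of Kcnk3 (0.96 to 0.999), all by size. A fit of the recovered reads by voom called 13 members, 8 higher and 5 lower, mice of letter G alone left Kcnk2 at -0.93, and the mouse as a fixed effect left Kcnk2 at -0.91 and Kcnk3 at 0.84.

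Among partner genes, Gi/o-coupled receptors had 3 higher and 8 lower in Pvalb cells, with the largest differences in Sstr1 (-4.02), Oprk1 (-3.42) and Htr1a (-3.42). G protein subunits had 1 higher (Gng7, 1.60) and 3 lower (Gng4, -2.69, and Gng2, -1.64, the largest). The RGS and KCTD list had 4 lower and none higher, led by Rgs6 (-5.46), Rgs8 (-4.18) and Rgs10 (-2.47). Abcc8, the sulfonylurea receptor that pairs with Kcnj11, was higher in Pvalb cells by 1.49 ± 0.32 on the log2 scale, and Pip5k1b was lower (-1.36).

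**Figure D1:**
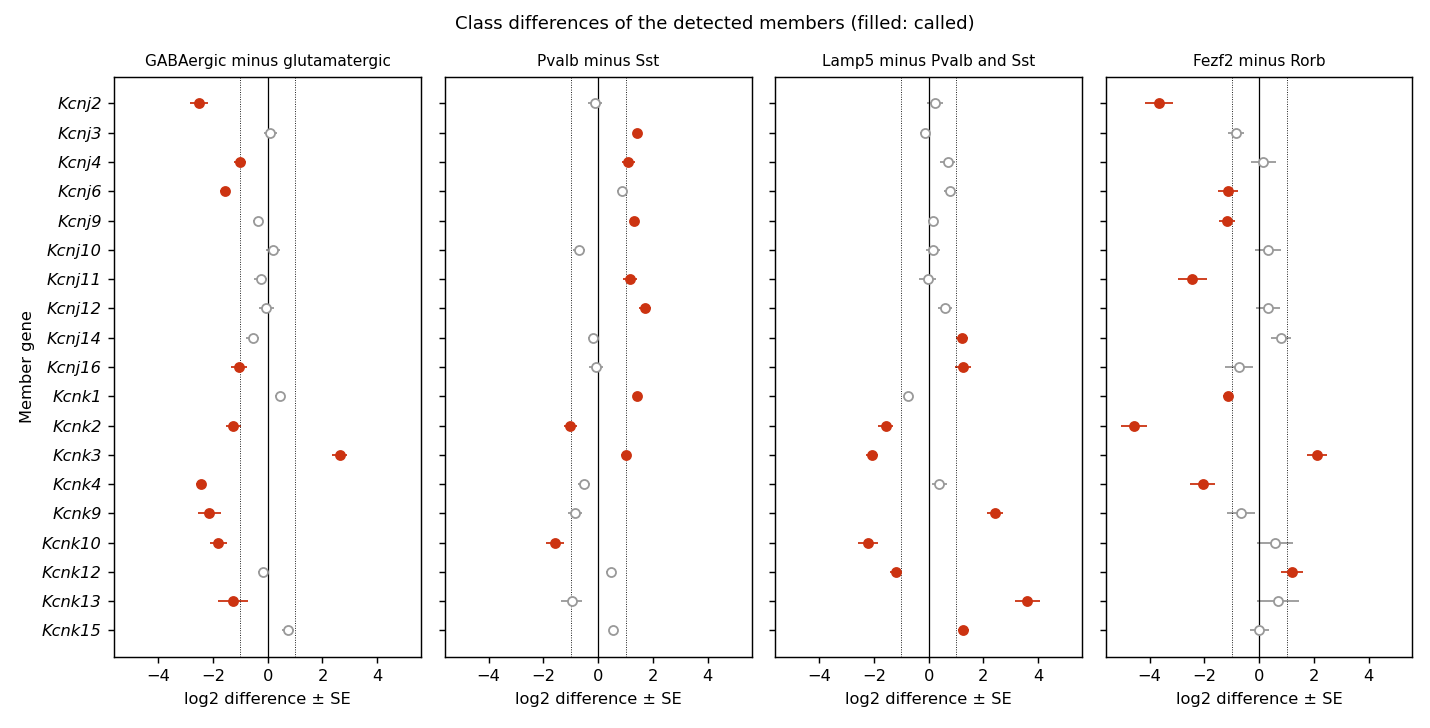
Log2 difference of each member in 4 class comparisons, with bars of 1 SE; filled points passed an adjusted p of 0.05 and a size of 1. Kcnk3 is at 2.63 in GABAergic minus glutamatergic cells, Kcnk13 at 3.60 in Lamp5 minus Pvalb and Sst cells, and Kcnk2 at -4.58 in Fezf2 minus Rorb cells.

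Lamp5 cells, set by Adarb2 and Lamp5 where the Pvalb and Sst classes were set by Lhx6 and their own marker, had a different set of leak channels. Kcnk13 and Kcnk9 were higher in them, as were the weakly expressed Kcnk15, Kcnj14 and Kcnj16, and Kcnk10, Kcnk3, Kcnk2 and Kcnk12 were lower. No Kcnj gene averaging 5 CPM or more was called. The contrast set 7 Lamp5 mouse means against the average of the Pvalb and Sst classes and called 9 of the 20 members, beside 11.5% of all genes (6.78% higher and 4.74% lower). The median log2 difference was 0.20 over these members and 0.02 over all genes.

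Kcnk13, a THIK channel, had 13.7, 27.9 and 35.1 CPM in the lowest, median and highest Lamp5 mean. In Pvalb means it had 0, 0.235 and 3.80 CPM, and in Sst means 0, 1.47 and 9.17 CPM. Every Lamp5 mean lay above every Pvalb and Sst mean, and the log2 difference was 3.60 ± 0.45 (SE; adjusted p = 1.44e-09). Kcnk12, the other THIK gene, had 5.26, 7.10 and 10.2 CPM in Lamp5, 9.21, 22.97 and 34.5 CPM in Pvalb and 6.94, 17 and 30.7 CPM in Sst means, a log2 difference of -1.19 ± 0.23 (adjusted p = 2.60e-05). Its Lamp5 means touched the lower ends of both other classes.

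The TASK genes split in the same way. Kcnk9 had 1.81, 9.18 and 17.1 CPM in Lamp5, 0, 0 and 4.19 CPM in Pvalb and 0, 1.24 and 5.63 CPM in Sst means (2.43 ± 0.30, adjusted p = 8.86e-10). Kcnk3 had 6.89, 13.4 and 16.9 CPM in Lamp5 cells, below the lowest mean of both other classes (-2.08 ± 0.21, adjusted p = 2.06e-12). Kcnk9 overlapped at the low end of the Lamp5 means, and Kcnk3 did not overlap. For this contrast too, the share of all genes without overlap was not counted. Kcnk15 reached 0.0869, 2.36 and 6.44 CPM in Lamp5 means, against 0.637 ± 0.625 CPM in Pvalb cells (SD, n = 21), a log2 difference of 1.26 ± 0.20 (adjusted p = 9.21e-07).

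The TREK genes were both low in Lamp5 cells. Kcnk2 had 7.40, 12.2 and 16.1 CPM there, under every Sst mean (-1.57 ± 0.28, adjusted p = 6.88e-06). Kcnk10 had 0, 0 and 0.747 CPM, also under every Sst mean (-2.22 ± 0.38, adjusted p = 2.49e-06). Kcnj14, a strong rectifier, was at 2.09 ± 1.48 CPM in Lamp5 cells and 0.124 ± 0.193 CPM in Pvalb cells (1.23 ± 0.21, adjusted p = 4.89e-06), and Kcnj16 at 2.90 ± 3.48 and 0.101 ± 0.222 CPM (1.25 ± 0.29, adjusted p = 0.000622). Kcnk1, at 93.7 ± 17.7 CPM in Lamp5 cells, was under the size threshold (-0.77 ± 0.10, adjusted p = 6.58e-09).

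Within 4 mice that held both Lamp5 and Pvalb cells, Kcnk13, Kcnk9 and Kcnk15 were higher in Lamp5 cells in 4 of 4, and Kcnk2, Kcnk3 and the uncalled Kcnk1 were lower in 4 of 4. Kcnk10 was lower in 3 of them and at 0 in both classes of MouseID-458159. Kcnk12 was lower in 3, and at 9.60 CPM in Lamp5 and 9.21 CPM in Pvalb cells of MouseID-384912. The call of Kcnj16 ended without hDLXI56i MouseID-382159 (0.93, adjusted p = 0.0141). With the mouse as a fixed effect, Kcnj16 (adjusted p = 0.210), Kcnk10 (0.0645) and Kcnk12 (0.054) were not called. Astrocyte markers summed to 63.3 to 123.4 CPM in Lamp5 means, with Aldh1l1 at 0, against 0 to 25.8 CPM in Pvalb and 0.284 to 24.6 CPM in Sst means. Slc1a2 alone was at 55.7 to 107.1 CPM in Lamp5 means. The part of the markers in these differences was not tested.

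Partner genes also differed. Gi/o-coupled receptors had 8 higher and 4 lower in Lamp5 cells, with the largest differences in Oprd1 (-4.23), Chrm2 (-3.65) and Npy1r (2.72). G protein subunits had 2 higher (Gnb4, 2.04, and Gng7, 1.12) and 1 lower (Gnaz, -1.89). The RGS and KCTD list had 6 higher and 3 lower, with Kctd8 (-5.58), Rgs10 (5.16) and Rgs12 (3.12) the largest, and a median of 1.66. Pip5k1b was higher (3.02).

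Fezf2 and Rorb cells, glutamatergic classes that each express 1 of 2 transcription factors, differed in 9 of the 20 members, beside 12.7% of all genes (5.7% higher and 7.05% lower in Fezf2 cells). Kcnk3 and Kcnk12 were higher in Fezf2 cells. Kcnj2, Kcnj6, Kcnj9, Kcnj11, Kcnk1, Kcnk2 and Kcnk4 were lower. The median log2 difference was -0.33 over these members and close to 0 over all genes. The Fezf2 means came from 3 mice, all with eHGT_078h, and the Rorb means from 5, of which 3 had eHGT_058h, 1 eHGT_023h and 1 eHGT_078h. Class and enhancer were thus largely confounded. In the 1 mouse that held both classes, eHGT_078h MouseID-498749, Kcnk2 was at 89.6 CPM in Rorb and 9.90 CPM in Fezf2 cells, and Kcnj11 at 26.8 and 3.34 CPM.

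Kcnk2 was at 89.6, 144.1, 167, 181.4 and 261.96 CPM in the 5 Rorb means and at 0.852, 9.90 and 11.1 CPM in the 3 Fezf2 means. All Rorb means were well above all Fezf2 means, and the log2 difference was -4.58 ± 0.48 (SE; adjusted p = 2.67e-11). Kcnj2 was at 4.07, 8.96, 12.6, 14.8 and 32.8 CPM in Rorb cells and at 0, 0 and 0.345 CPM in Fezf2 cells (-3.66 ± 0.53, adjusted p = 1.75e-07). None of the 57 Fezf2 cells had Kcnj2 at 10 CPM, a count of 0 that allows a share of up to 5.26% if cells are taken as independent. That limit leaves out the spread between mice. Kcnj11 was at 10.1, 26.8, 29.7, 35.8 and 42.5 CPM against 3.34, 3.85 and 4.68 CPM (-2.44 ± 0.54, adjusted p = 0.000486).

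Kcnk3 was at 0, 0.509, 2.77, 2.82 and 3.77 CPM in Rorb and 8.49, 8.97 and 15.2 CPM in Fezf2 means (2.12 ± 0.37, adjusted p = 8.90e-06). Kcnk12 was at 7.58, 8.68, 12.3, 16 and 19.99 CPM against 25.5, 27.5 and 34.97 CPM (1.19 ± 0.40, adjusted p = 0.0251). These were the 2 members called higher in Fezf2 cells, and neither overlapped. Kcnk4 was at 30.5 to 52.8 CPM in Rorb cells and at 8.52, 8.57 and 8.72 CPM in Fezf2 cells (-2.07 ± 0.45, adjusted p = 0.000459), where the 3 mice were close together.

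The GIRK subunits and Kcnk1 were lower in Fezf2 cells by smaller margins. Kcnj6 was at 67.3 to 116 CPM against 35.3, 44.2 and 44.7 CPM (-1.15 ± 0.37, adjusted p = 0.0182), Kcnj9 at 91.6 to 176.5 CPM against 40.2, 44.4 and 74 CPM (-1.17 ± 0.29, adjusted p = 0.00159), and Kcnk1 at 85.6 to 170.7 CPM against 46.2, 63.1 and 64.5 CPM (-1.15 ± 0.18, adjusted p = 6.42e-07). The classes did not overlap for any of the 9 called members, which were picked by size and adjusted p. They did not overlap for the uncalled Kcnj3 either (means of 72.4 CPM in Fezf2 and 129.4 CPM in Rorb cells). The share of all genes without overlap was not counted. Kcnk10, in contrast to Kcnk2, was at 26.2 ± 9.13 CPM in Fezf2 cells and 18.4 ± 9.09 CPM in Rorb cells (SD, n = 3 and 5) and was not called.

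Without eHGT_078h MouseID-498749 the calls of Kcnj6 (adjusted p = 0.0862) and Kcnj9 (0.0634) ended, and that of Kcnk12 ended without any 1 of 5 mice (0.0546 to 0.111). Mice of letter G alone left Kcnj6 (adjusted p = 0.222), Kcnj9 (0.141), Kcnk12 (0.0914) and Kcnk4 (0.068) uncalled. That subset held only the Fezf2 means of MouseID-453328 and MouseID-454782 and the Rorb means of MouseID-458159 and MouseID-463481. A lost call there cannot be told apart from the loss of mice. The mouse as a fixed effect left Kcnj6 (0.0511), Kcnk12 (0.207) and Kcnk4 (0.0798) uncalled. Kcnj6 fell short in 8 of 14 alternatives. Astrocyte markers summed to 520 to 822 CPM in Rorb and 19.7 to 33.9 CPM in Fezf2 means; in Rorb cells Aqp4, Gja1 and Gfap were at 0 and most of the sum was the glutamate transporter Slc1a2, at 511 to 766.2 CPM. Their part in these differences was not tested.

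Among partner genes, Gi/o-coupled receptors had 2 higher and 6 lower in Fezf2 cells, led by Chrm2 (-5.63), Sstr4 (4.40) and Sstr3 (-3.14). G protein subunits had 3 higher and 1 lower, led by Gng7 (3.65), Gng4 (-2.65) and Gnb5 (1.57), and RGS and KCTD proteins 1 higher and 3 lower, led by Kctd16 (-4.13), Rgs10 (-4.11) and Kctd8 (3.38). Abcc8 was lower together with Kcnj11, by -2.37 ± 0.65 on the log2 scale, and Pip5k1c was lower (-1.90). Of the Rorb cells with Kcnj11 at 10 CPM or more, 75% also had Abcc8 at that level, beside 58.7% of all Rorb cells, and of the Fezf2 cells 18.2%, beside 22.8%. Over all cells the 2 genes were found together in 37.97% of the cells with Kcnj11 and 49.7% of those with Abcc8, beside 30.4% of all cells with Abcc8 and 39.8% with Kcnj11.

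GIRK channels are tetramers in which Kcnj3 usually needs Kcnj6 or another partner to reach the cell surface. All 3 detected subunits, Kcnj3, Kcnj6 and Kcnj9, were at 10 CPM or more in 772 cells (52.1% of all), and 25 cells had none of them. Per mouse, the share of cells with all 3 was 91.2 ± 12.6% in Rorb cells (SD, n = 5), 76.5 ± 12.9% in Fezf2 (n = 3), 60.2 ± 9.93% in Pvalb (n = 21), 42.1 ± 12.1% in Lamp5 (n = 7), 27.3 ± 17.9% in Vip (n = 4) and 17.7 ± 12.2% in Sst cells (n = 12). Sst cells thus had the lowest share of complete sets, and 8.17 ± 6.92% of them per mouse had none of the 3, against 0% of Pvalb cells. These shares depend on depth, which differed little (median of 592602 reads in Rorb and 553927 in Sst cells), and are descriptions with no test.

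Summed per kilobase, the 4 GIRK genes reached 65.1 ± 12.1 CPM in Rorb, 50.8 ± 6.62 in Pvalb, 35.2 ± 5.02 in Lamp5, 31.6 ± 4.93 in Fezf2 and 20.9 ± 5.66 in Sst cells (SD over mice). Kcnj6 made up 5.76 ± 2.03% of that sum in Pvalb cells and 18.9 ± 5.44% in Rorb cells. Kcnj5, the cardiac partner, was at most 0.0301% of it in any class. Of the Kcnj6 cells, 95.6% also had Kcnj3, which was found in 92.4% of all cells, and of the Kcnj3 cells 61.2% had Kcnj6, which was found in 59.2% of all cells.

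Within the TASK, THIK and TREK and TRAAK subfamilies, the makeup of the summed level differed between classes. Relatives were not always opposed. Kcnk12 and Kcnk13 averaged 22.9 and 27.1 CPM in glutamatergic cells with neither Rorb nor Fezf2. Of the summed TASK level per kilobase, Kcnk3 was 98.1 ± 1.66% in Pvalb cells and 98.1 ± 1.67% in Sst cells, 77.2 ± 7.02% in Fezf2 and 60.9 ± 21% in Lamp5 cells, where Kcnk15 supplied 23.7 ± 18.6%. In Rorb cells the order turned over, with Kcnk9 at 74.9 ± 20.1% and Kcnk3 at 25.1 ± 20.1%. In single cells, Kcnk3 was at 10 CPM or more in 557 of 572 Pvalb cells and Kcnk9 in 6, whereas among 46 Rorb cells Kcnk3 was found in 4 and Kcnk9 in 20.

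The makeup of the summed THIK level differed between Pvalb and Lamp5 cells. The sum per kilobase was 11.8 ± 3.02 CPM in Pvalb and 12.3 ± 2.79 CPM in Lamp5 cells (SD, n = 21 and 7), and over the 7 classes it ran from 1.03 CPM in Vip cells to 20.3 CPM in glutamatergic cells with neither Rorb nor Fezf2. Kcnk13 made up 2.18 ± 4.59% of it in Pvalb and 66.6 ± 11% in Lamp5 cells. Of the Lamp5 cells, 29.4% had Kcnk12, 48.4% had Kcnk13 and 17% had both at 10 CPM or more, and of the Pvalb cells 75% had Kcnk12 and 1.57% had Kcnk13. In glutamatergic cells with neither Rorb nor Fezf2, Kcnk13 was at 27.1 ± 19.2 CPM (SD, n = 7) and ranged from 0.138 to 55.3 CPM between mice, the widest spread of that gene in any class. Among TREK and TRAAK genes, Kcnk10 was 46.9 ± 17.4% of the sum per kilobase in Fezf2 cells and 4.92% in Rorb cells. Kcnk2 was found in 42 and Kcnk10 in 12 of the 46 Rorb cells, and in 9 and 34 of the 57 Fezf2 cells.

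Vip cells, with only 4 mouse means, entered no contrast of their own. Kcnj3 was at 125.5, 148.2, 176.4 and 179.3 CPM in them and Kcnk9 at 13.6, 17.2, 17.6 and 24.3 CPM. Both genes thus had their highest class mean in Vip cells. Kcnk12 was at 0, 0, 1.40 and 5.19 CPM and Kcnk13 at 0, 0, 0 and 2.41 CPM, so both THIK genes were low in this class.

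**Figure D2:**
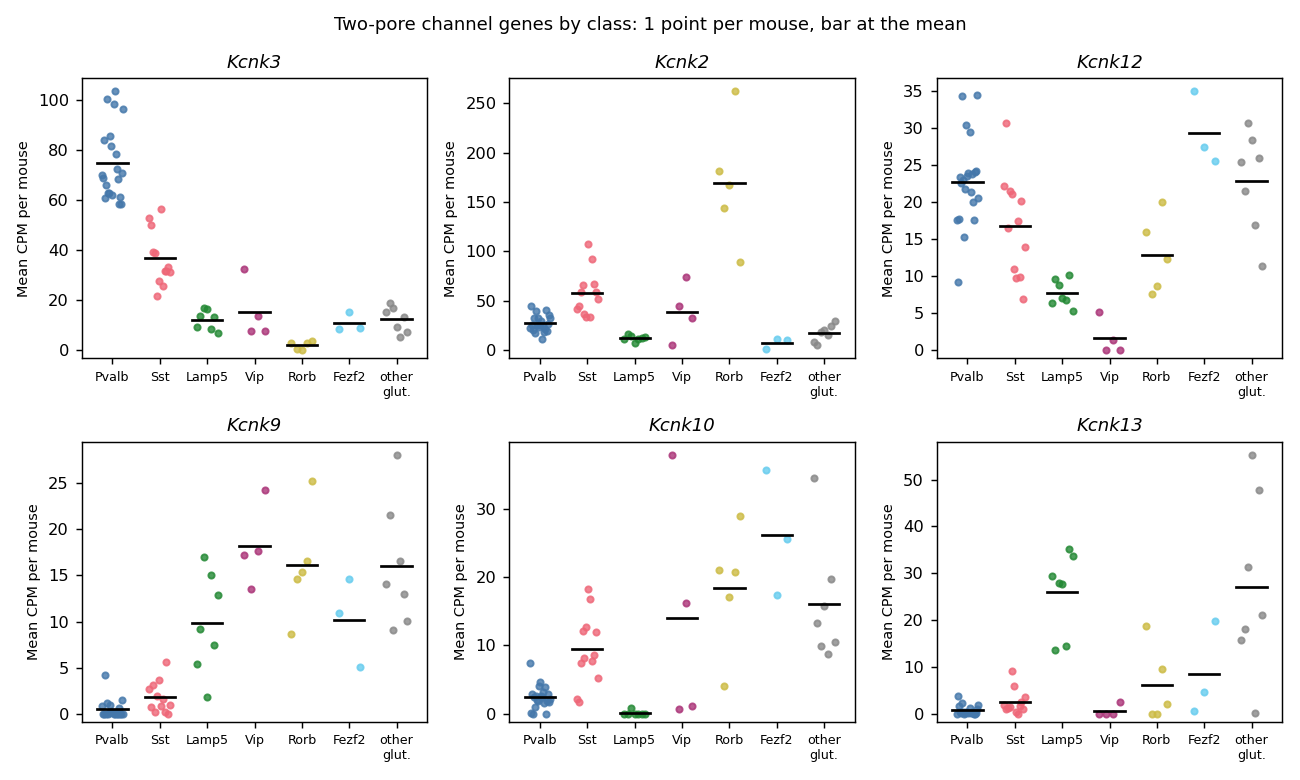
Mean CPM of Kcnk3, Kcnk2, Kcnk12, Kcnk9, Kcnk10 and Kcnk13 in each marker class; points are mice with at least 5 cells of the class and lines are means. Kcnk3 averages 74.8 CPM in Pvalb cells, Kcnk2 168.8 CPM in Rorb cells, and Kcnk13 26 CPM in Lamp5 cells.

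Between enhancers, 17 of the 19 detected members differed over all 33 mice (moderated F in limma, adjusted p under 0.05), beside 53.4% of all genes. Kcnj10 (adjusted p = 0.341) and Kcnk15 did not pass. A mouse mean here averages all its sorted cells, so a smaller share of cells of a class and less RNA per cell cannot be told apart. Setting each enhancer against the mean of the others called 41 of the pairs of member and enhancer (19 members by 11 enhancers), 22 higher and 19 lower, beside 5.6% of all such pairs over all genes. A fit of the recovered reads by voom called 40 pairs, 30 higher and 10 lower, beside 7.19% of all such pairs. Among letter G mice alone, which include none of eHGT_023h, 32 pairs were called, beside 5.6%.

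Calls were most numerous in eHGT_058h, followed by eHGT_019h and eHGT_078h. In eHGT_058h mice, whose cells included 27 Rorb cells and 26 with neither gene, 9 members were called, beside 12.5% of all genes. Kcnk2 was at 94.9, 142.2 and 172.004 CPM, above all 30 other mice, with a log2 difference of 2.01 ± 0.34 (SE). Kcnk3 was at 6.24, 7.04 and 15.6 CPM (-2.01 ± 0.25, adjusted p = 2.96e-07). Kcnk2 was thus high and Kcnk3 low in all 3 mice. For no enhancer was it counted how many of all genes lay above or below all other mice. Kcnk4 was at 21.6, 26.9 and 31 CPM (1.94 ± 0.28), Kcnj6 at 44.8, 57.8 and 63 CPM (1.18 ± 0.17) and Kcnj4 at 21.5, 24.8 and 39.4 CPM (1.21 ± 0.24). Kcnk13 (1.98), Kcnk9 (1.78), Kcnj2 (1.39) and Kcnk10 (1.01) were higher too, and Kcnk10 lost its call without any 1 of 15 mice (0.85 to 0.9996). The astrocyte marker sum was 304.3 to 545 CPM in these mice, and its part was not tested.

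In eHGT_078h mice, with 47 Fezf2 cells and 66 with neither gene, 7 members were called, beside 14.4% of all genes. Kcnk10 was at 14.3, 17.1 and 32.4 CPM, above all other mice (2.08 ± 0.31). Kcnk9 was at 10.3, 18 and 19.9 CPM (2.11 ± 0.40), Kcnj2 at 3.5, 7.39 and 11.1 CPM (1.96 ± 0.32) and Kcnk4 at 14.8, 18.2 and 27.9 CPM (1.5 ± 0.28). All 4 were higher than the mean of the other enhancers, as were Kcnk13 (1.45) and Kcnj6 (1.08). Kcnk3, at 6.83, 9.36 and 16.6 CPM, was lower (-1.81 ± 0.25).

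In eHGT_019h mice, with 82 Lamp5 cells, 7 members were called, beside 9.62% of all genes. Kcnk13 was at 22.2, 25.5 and 28.3 CPM, above all other mice (2.67 ± 0.36, adjusted p = 1.30e-06), and Kcnk10 at 0, 1.17 and 1.34 CPM, below all other mice (-1.90 ± 0.31). Kcnk3 was at 15.9, 16.4 and 16.7 CPM (-1.12 ± 0.25), Kcnk2 at 14.5, 17.3 and 17.6 CPM (-1.23 ± 0.34) and Kcnk12 at 7.65, 8.08 and 9.64 CPM (-1.08 ± 0.19). The 3 mice differed little among themselves in these members. Kcnk9, at 2.54, 14.4 and 14.4 CPM, was less even (1.23 ± 0.40), and Kcnj16 was higher as well (1.15 ± 0.35). In eHGT_017h mice, with 61 Sst and 26 Vip cells, 3 members were called beside 5.19% of all genes: Kcnk9 at 9.89, 11.6 and 15.2 CPM (1.74 ± 0.40) and Kcnj2 at 4.52, 4.94 and 7 CPM (1.66 ± 0.32) were higher, and Kcnj4 at 2.84, 5.23 and 7.95 CPM (-1.27 ± 0.24) was lower.

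Kcnk3 was called higher in 3 enhancers whose classed cells were mostly Pvalb cells. It was in eHGT_079h at 63.2, 78.3 and 82.2 CPM (1.21 ± 0.25), in eHGT_082h at 70.7 and 94.7 CPM (1.36 ± 0.30) and in eHGT_140h at 58.8, 67.2 and 97.6 CPM (1.18 ± 0.25). In eHGT_128h, also mostly Pvalb cells, Kcnk3 was at 57.7, 58.5 and 74.9 CPM and just under the size threshold (0.96 ± 0.25, adjusted p = 0.0105). The 3 groups with the call had 2, 1 and 6 members called in all, beside 1.86%, 1.67% and 5.4% of all genes. In eHGT_140h, Kcnk13 (-1.92), Kcnk9 (-1.55), Kcnj2 (-1.29), Kcnk4 (-1.04) and Kcnk10 (-1.03) were lower, and in eHGT_128h, where 3 were called beside 4.74%, Kcnk9 (-1.89), Kcnk13 (-1.69) and Kcnj2 (-1.29) were lower. Kcnj2 was at 0 in every mouse of eHGT_064h, eHGT_128h and eHGT_140h, where 3 reads over the group would be 0.0307, 0.0322 and 0.0391 CPM. No cell had Kcnj2 at 10 CPM among 572 Pvalb cells, which allows a share of up to 0.524%, or among 210 Sst cells, which allows 1.43%. Both limits take cells as independent and leave out the spread between mice.

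The other groups had few calls. In eHGT_064h, Kcnj2 (-1.29) and Kcnk13 (-1.25 ± 0.31) were lower, beside 2.51% of all genes, and Kcnj2 was lower in eHGT_079h (-1.10) and in hDLXI56i (-1.05, beside 3.11%). In eHGT_023h no member was called, beside 0.65% of all genes, and 2 had an unadjusted p under 0.05. Kcnk1 was called in no enhancer and ran from 97.2 ± 10.5 CPM in eHGT_019h to 295.7 ± 17.1 CPM in eHGT_140h (SD, n = 3 each).

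Several of these calls ended when 1 mouse was left out. Leaving a mouse out also lowers the number of mice in its group. An end by adjusted p therefore does not by itself mean that the call rested on that mouse. Those of Kcnj4 in eHGT_017h without MouseID-406074 (-0.95), Kcnj4 in eHGT_058h without MouseID-497551 (0.96), Kcnj6 in eHGT_078h without MouseID-453328 (0.99) and Kcnk3 in eHGT_140h without MouseID-505190 (0.97) ended by size. In eHGT_019h, Kcnk2 ended without MouseID-400156 (adjusted p = 0.0596), Kcnk9 without MouseID-392043 (0.215) or MouseID-401668 (0.213) and Kcnj16 without MouseID-400156 (0.0551) or MouseID-401668 (0.160). Kcnk3 ended in eHGT_079h without MouseID-473544 (adjusted p = 0.131). In eHGT_082h it ended without MouseID-473545 (log2 difference 1.57) or MouseID-475242 (1.15), which each left 1 mouse in the group. Kcnk13 ended in eHGT_064h without MouseID-492045 (adjusted p = 0.107) or MouseID-497550 (0.0641), and Kcnk9 in eHGT_140h without MouseID-505190 (0.141). Kcnj2 ended without any 1 of the group's own mice in eHGT_128h (0.0559 to 0.0589) and hDLXI56i (0.0613 to 0.212). In eHGT_128h its log2 difference stayed at -1.29 each time. In eHGT_079h, Kcnj2 ended without any 1 of 23 mice. Kcnk10 and Kcnk4 in eHGT_140h ended without any 1 of 6 and of 4 mice. In eHGT_019h MouseID-400156, a cell of 833 reads with 2 reads of Kcnj3 put that gene's mean at 181.5 CPM, and it was 116 CPM without that cell.

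**Figure D3:**
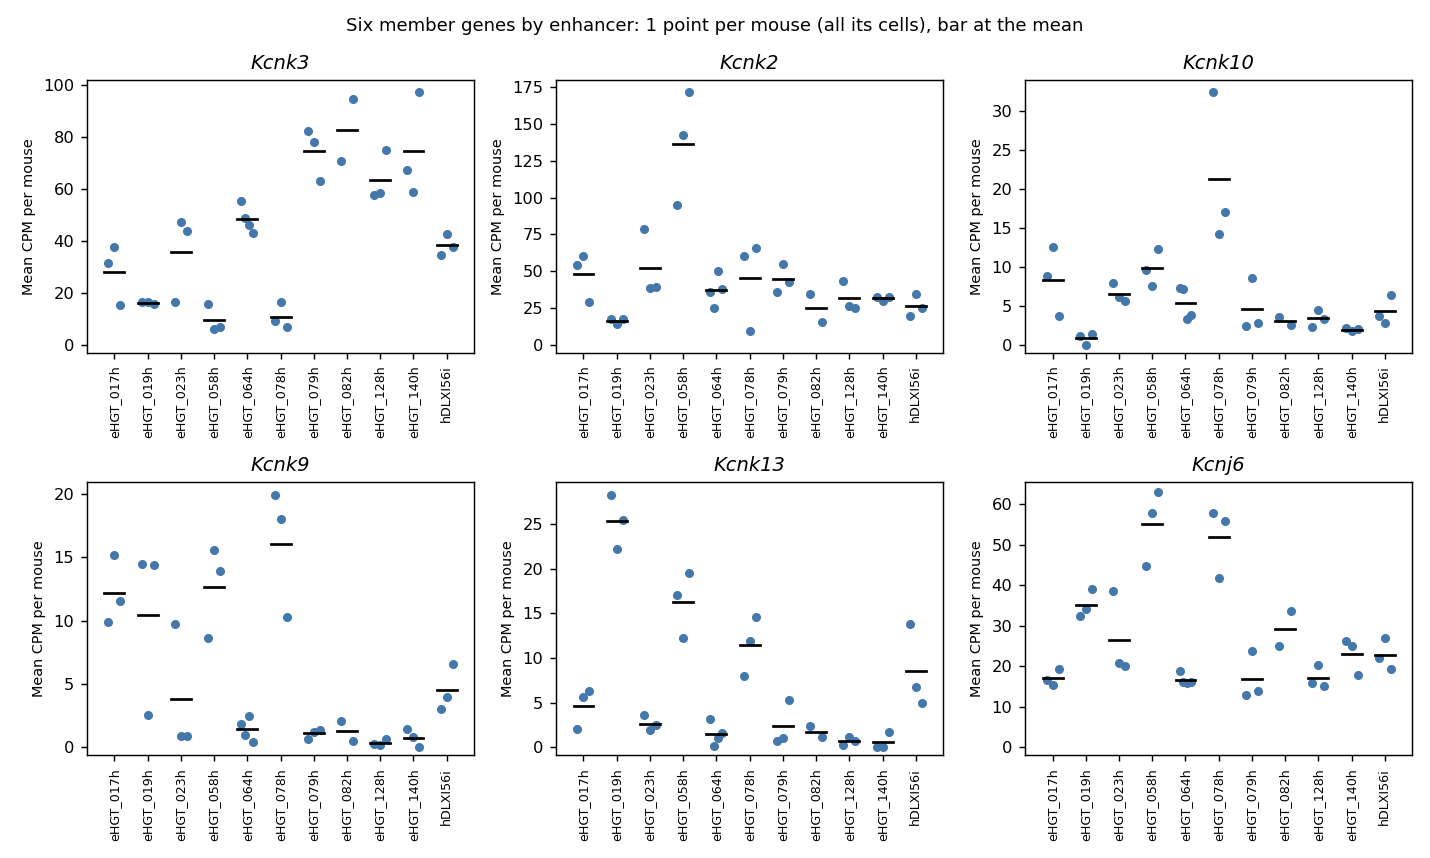
Mean CPM of Kcnk3, Kcnk2, Kcnk10, Kcnk9, Kcnk13 and Kcnj6 over all sorted cells of a mouse, by enhancer; points are the 33 mice and lines are group means. Kcnk2 lies at 94.9 to 172.004 CPM in the 3 eHGT_058h mice and Kcnk13 at 22.2 to 28.3 CPM in the 3 eHGT_019h mice.

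Cells of a single class were then compared between the enhancers that labelled them. Among Pvalb cells of 7 enhancers (20 mice), 0 of the 15 members that passed the filter were called by limma, beside 1.19% of all genes, and 1, Kcnk1, had an unadjusted p under 0.05 (0.00396; adjusted p = 0.126). voom also called 0. With at least 10 cells a mouse, which leaves out hDLXI56i MouseID-400157, Kcnk1 was called (adjusted p = 0.0134). Among Sst cells of 4 enhancers (11 mice), 0 of 16 were called by limma and 0 by voom, beside 0.123% of all genes, and 2 had an unadjusted p under 0.05, Kcnk10 (0.00987) and Kcnk12 (0.0160). No member was thus called between enhancers within these classes by either tool at 5 cells a mouse, with 2 to 4 mice per enhancer.

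The other detected members were rare. Kcnj2 (chr11:111066164-111076821, plus) averaged 2.19 ± 2.87 CPM and reached 10 CPM in 5.26% of cells. Kcnj16 (chr11:110968033-111027968, plus), Kcnj10 (chr1:172341210-172374085, plus), Kcnk15 (chr2:163853651-163859746, plus) and Kcnj14 (chr7:45816460-45824782, minus) averaged 0.506 to 0.788 CPM and reached 10 CPM in 24, 25, 33 and 27 cells. Kcnj10, the main rectifier of astrocytes, lies 11892 bases from Kcnj9 on the other strand and averaged 0.619 ± 0.801 CPM against 74.9 CPM for its neighbour. Of the 25 cells with Kcnj10, 72% also had the summed astrocyte markers at 10 CPM, against 44.2% of the others. For summed oligodendrocyte markers it was 76% against 62.4%.

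The 10 members that were not detected were Kcnj1, Kcnj5, Kcnj8, Kcnj13, Kcnj15, Kcnk5, Kcnk6, Kcnk7, Kcnk16 and Kcnk18, with 0 to 5 cells each at 10 CPM. Kcnj5, Kcnk5 and Kcnk16 reached that level in 0 cells. Kcnj8, the rectifier of pericytes and smooth muscle, had 1 such cell, at 192.1 CPM. Kcnj13 had 3, and it lies within the range of Gigyf2 on the opposite strand, which averaged 68.9 CPM; Kcnk3 overlaps Gm9899 on the opposite strand, at 3.48 CPM. Whether the counting used strand is not given in the sources used here, so reads of such pairs cannot be told apart.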

How the data were processed

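Expression was measured by single-cell RNA-seq in 1483 cells from 33 mice. The deposited table holds counts per 1000000 reads (CPM) computed by the authors per cell. STAR and the mm10 build are listed in the submitters' processing notes; which program counted reads, and on which annotation, is not given in the sources used here. All values were whole multiples of 1 read within 0.01 read, which gave reads per cell. Cells are not replicates: CPM was averaged per mouse, or per mouse and class with at least 5 cells, and limma 3.58.1 (R 4.3.3; trend, robust) was fitted to log2(mean CPM + 1) for every gene that reached 1 CPM in 2 or more means. Fold changes on this scale understate the change of low genes. Class fits kept the mouse as a random block (statmod 1.5.0). The code was tested on simulated data. No doublet caller was run. Mice are separate animals by the labels.

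All members are accounted for; detected members averaging 5 CPM are given in sentences, others only when called, and at most 3 called partner genes per list. Members, lists and comparisons were chosen with earlier results of these data known. Alternatives were other pseudocounts, filters, marker thresholds, minimum cells, mean log2 values, library letter, mouse as a fixed effect and each mouse left out. voom on the recovered reads was added after the data were seen, in place of a count model.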

Additional observations from a re-analysis of the deposited data

Results flagged for a closer look

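In 20 of 114 tested groups of 4 to 10 mice (17.5%), 1 mouse lay far from the others by Dixon's criterion. Its nominal rate of about 1 in 20 groups holds for independent groups of normally spread values. Here groups shared mice, and in several flagged groups all other mice were at 0. The share of 17.5% can therefore not be read against that rate. In eHGT_064h this held for Kcnj3 (114 CPM, next 77.6), Kcnj6 (18.8, next 16.1), Kcnj9 (62.9, next 58.9), Kcnj11 (15.2, next 9.60), Kcnj14 (0.199) and Kcnj16 (0.775 CPM). MouseID-468100 was the distant one for Kcnj6, Kcnj9 and Kcnj14. In glutamatergic means it held for Kcnj14 (5.78 CPM) and Kcnj16 (9.93 CPM) in eHGT_023h MouseID-497549, for Kcnk3 (17.1, next 9.36), for Kcnk10 (32.4, next 18) in eHGT_078h MouseID-453328, and for Kcnk15 (0.0554). In Rorb cells of eHGT_058h MouseID-497551, Kcnj14 was at 1.36 and Kcnj16 at 8.86 CPM. In glutamatergic cells with neither Rorb nor Fezf2, Kcnj4 was at 60.8 CPM in that mouse (next 30.8), Kcnj14 at 2.71 CPM, and Kcnk10 at 34.4 CPM in MouseID-453328 (next 19.7). In Lamp5 cells, Kcnk1 reached 131.8 CPM (next 94.5) and Kcnk10 0.747 CPM. In Vip cells, Kcnj10 was at 0.572 and Kcnk13 at 2.41 CPM.

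Effects were also looked at for opposite directions between enhancers within mice. Pvalb minus Sst was compared between eHGT_064h and hDLXI56i, and GABAergic minus glutamatergic between eHGT_023h and eHGT_058h. Taking each detected member in each comparison gave 38 cases. In none did every mouse of 1 enhancer move one way and every mouse of the other the opposite way.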

How the results depend on the processing

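No direction reversed in any alternative run. With a pseudocount of 10 the calls were 7 pairs of member and enhancer (41 with 1), 4 GABAergic minus glutamatergic members (10), 4 Pvalb minus Sst (9), 3 Lamp5 minus Pvalb and Sst (9), 6 Fezf2 minus Rorb (9) and 16 for all enhancers together (17). Letter G mice gave 6 and 14 in the last 2, beside 11.9% and 40.2% of all genes. The mean of log2 values over cells kept 20 of the 41 pairs and ended 21 (35 pairs in all, beside 5.53% over all genes). It also ended 3 GABAergic minus glutamatergic and 3 Lamp5 calls. With at least 10 cells a mouse, 1 member differed among Pvalb cells between enhancers (0 with 5). With each mouse left out in turn, the counts were 15 to 17 for all enhancers together, 37 to 42 pairs, 8 to 10 for GABAergic minus glutamatergic, 7 to 10 for Pvalb minus Sst, 8 to 9 for Lamp5, 7 to 10 for Fezf2 minus Rorb, 0 to 1 among Pvalb cells and 0 to 0 among Sst cells. In the same order, the shares of all genes were 50.3% to 57.9%, 5.35% to 5.87%, 16.8% to 17.5% and 8.06% to 8.47%. The last 4 were 11.5% to 12.1%, 10.7% to 13.4%, 0.487% to 8.18% and 0.00635% to 0.349%.

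The share of all genes called moved too. It went from 5.6% to 1.85% of gene and enhancer pairs with a pseudocount of 10. For GABAergic minus glutamatergic it was 17.1%, and 26.6% with a pseudocount of 0.1, 6.91% with 10 and 26.8% with voom. For Pvalb minus Sst it was 8.17%, and 12.7%, 2.88% and 15.9% in the same order. For Lamp5 it was 11.5%, and 4.45% with a pseudocount of 10 and 17.4% with voom, and for Fezf2 minus Rorb 12.7%, and 6.14% with 10. Among Pvalb cells between enhancers it was 1.19% and ran from 0.0568% (letter G mice) to 8.18% (at least 10 cells), and among Sst cells it was 0.123% and ran from 0% (letter G mice) to 0.527% (subclass markers at 200 CPM). Without a filter more genes were tested and these shares were lower.

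No paired analysis was possible between enhancers, because mouse numbers are unique to an enhancer and the groups share no replicate number. Class comparisons kept the mouse as a block. Depth limits the rare members: 10 CPM was 5.86 reads in the median cell. The upper limits given for classes without any cell at 10 CPM cover counting error only. The SD and SE values come from mouse means and include the spread between mice. The planned edgeR fit was not run.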
